A study of Mus musculus with 8 samples.

Results

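Yap1, Wwtr1 (the gene of TAZ), the TEAD family genes Tead1, Tead2, Tead3 and Tead4, and the cofactor genes Vgll3 and Vgll4 were described in Lewis lung carcinoma (LLC) cells with and without factor-inhibiting HIF (FIH). These 8 genes were taken by name from a count table of 53700 genes, and 7 of them were among the 13933 genes with enough counts to be tested. LLC is a mouse lung tumor cell line. RNA-Seq had been performed on WT LLC cells in normoxia (21% O2), WT cells in hypoxia (1% O2), FIH-KO cells in normoxia and FIH-KO cells in hypoxia, all cultured for 16 hours. Each of the 4 groups had 2 libraries. The FIH-KO cells had been made by transfecting Cas9 protein with a guide against exon 2 of Hif1an, the gene of FIH, and by single-cell dilution, so that they descended from single cells. How many clones were sequenced, and whether the WT cells had received a nontargeting guide, is not stated in the sources used here. The loss of FIH and other differences between such a clone and its parent cells therefore cannot be told apart.

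YAP and TAZ are transcriptional coactivators without a DNA-binding domain of their own. The kinases of the Hippo pathway phosphorylate them, which retains them in the cytoplasm and marks them for degradation, and when they are not phosphorylated they enter the nucleus and bind mainly to TEAD proteins, which recognise DNA. Vgll4 binds TEAD proteins in competition with YAP and TAZ, and Vgll3 is another TEAD-binding cofactor. FIH is an oxygen-dependent asparagine hydroxylase that limits the recruitment of p300 and CBP by HIF-1alpha and HIF-2alpha. RNA levels of the coactivators and of TEAD genes say nothing by themselves about the phosphorylation or location of the proteins.

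Library totals ran from 14519731 to 18177016 counts. Levels are given as CPM, counts brought to a common library total, after TMM normalization, an edgeR scaling of library sizes. Hif1an was at 84.6 and 82.3 CPM in WT cells in normoxia and 90.2 and 84.0 in WT cells in hypoxia. It was at 34.8 and 37.7 in FIH-KO cells in normoxia and 45.5 and 51.0 in FIH-KO cells in hypoxia. Both FIH-KO groups thus lay below both WT groups. The study had reported the absence of FIH protein by Western blot, which RNA counts do not measure. Of the epithelial markers, Epcam, Cdh1, Cldn4 and Esrp1 were at 3 counts or fewer in every library, as were the lung epithelial markers Nkx2-1, Sftpc, Sftpb and Scgb1a1, while Krt8 and Krt18 averaged 205 and 157 CPM. The leukocyte markers Ptprc, Cd3e and Itgam were also at 3 counts or fewer, and the summed level of the 6 leukocyte markers, mostly Cd68 and Lyz2, was 3.08 to 3.97 CPM in WT normoxia, 6.05 to 6.76 in WT hypoxia, 10.1 to 10.4 in FIH-KO normoxia and 8.14 to 9.18 in FIH-KO hypoxia. The 6 fibroblast markers, mostly Col3a1, summed to 1354 to 1751, 604 to 739, 1830 to 2193 and 1330 to 1724 CPM in the same order. The 6 mesenchymal markers, mostly Vim and Fn1, summed to 4502 to 5266 CPM in WT cells and 8387 to 9170 CPM in FIH-KO cells in normoxia. In hypoxia they summed to 5666 to 6098 and 9304 to 11134 CPM. The 7 epithelial markers, mostly Krt8 and Krt18, summed to 326 to 352 CPM in WT and 436 to 538 CPM in FIH-KO cells in normoxia. In hypoxia they summed to 226 to 283 and 334 to 447 CPM. The part of these differences in the results below was not tested. In bulk RNA, fewer cells of a type and less RNA per cell cannot be told apart.

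Tead3 and Tead4 were the members whose RNA differed between FIH-KO and WT cells. In FIH-KO cells Tead3 was 2.54-fold higher in normoxia and 2.05-fold in hypoxia, and Tead4 was 2.02-fold and 1.85-fold lower. Yap1, Wwtr1, Tead1, Tead2 and Vgll4 did not pass the test in either oxygen condition, and Vgll3 was at or near 0. Thus 1 of the 7 tested members was higher and 1 was lower in each oxygen condition, beside 15.2% of all tested genes called higher and 13% called lower in normoxia, and 14.1% and 13.9% in hypoxia (adjusted p under 0.05, edgeR quasi-likelihood test with Benjamini-Hochberg adjustment over 13933 genes). A share of 1 in 7 in each direction is near this background.

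**Figure D1:**
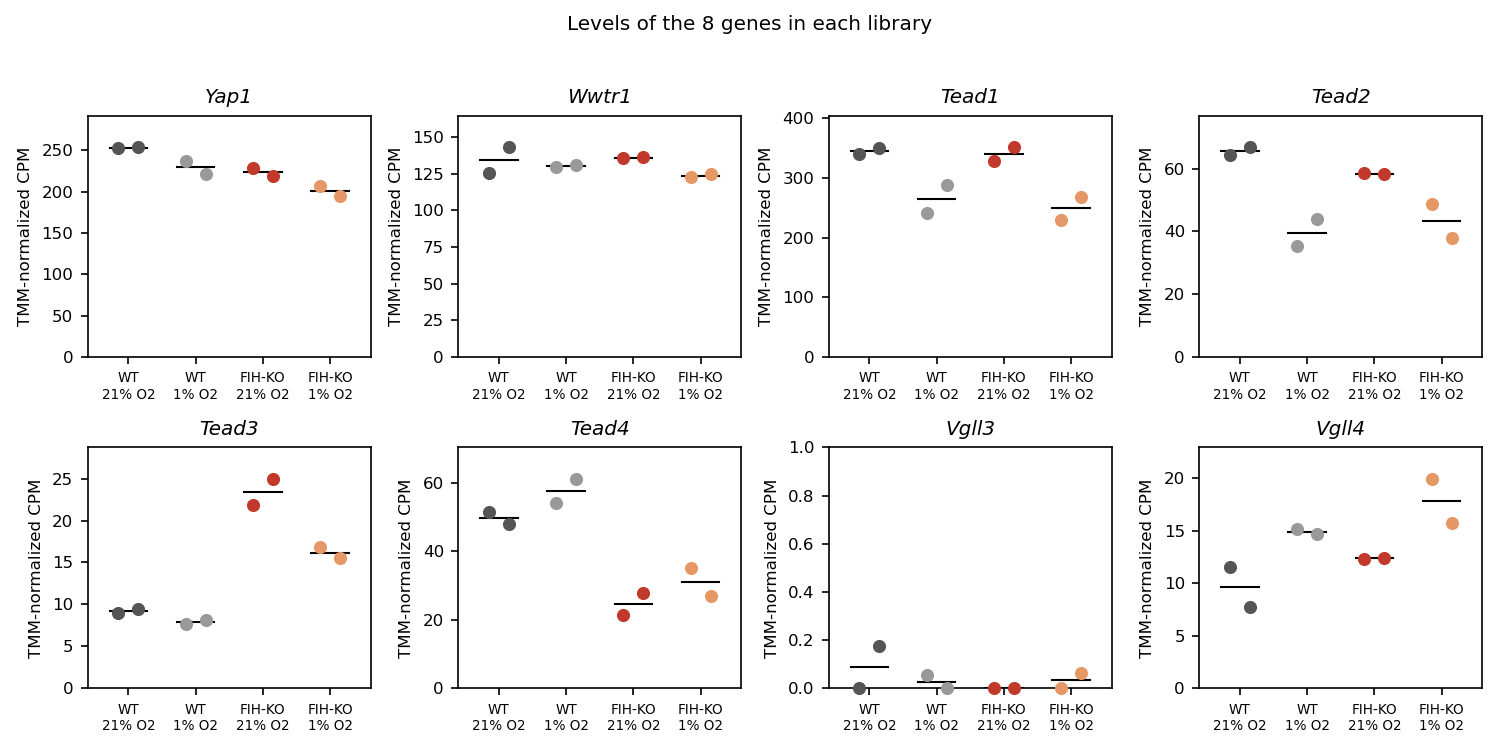
Level of each of the 8 genes in every library, in TMM-normalized CPM on axes that start at 0 and differ between genes. Points are libraries and bars are the means of the 2 libraries of a group. Both FIH-KO libraries lie above both WT libraries for Tead3 and below them for Tead4, in both oxygen conditions, and Vgll3 stays under 0.2 CPM.

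Yap1 and Wwtr1, the coactivators, had 2991 to 4279 and 1913 to 2432 counts a library. Yap1 (ENSMUSG00000053110.14, GRCm39 chr9:7932000-8004661, minus strand) was at 253 and 253 CPM in WT cells in normoxia, 238 and 221 in WT cells in hypoxia, 229 and 219 in FIH-KO cells in normoxia and 207 and 195 in FIH-KO cells in hypoxia. Within each oxygen condition both FIH-KO libraries were below both WT libraries. The log2 fold change in FIH-KO cells was −0.18 in normoxia (95% confidence interval −0.40 to 0.05, adjusted p = 0.221) and −0.19 in hypoxia (−0.41 to 0.03, adjusted p = 0.192), so that neither passed the threshold, while the intervals reached falls of 0.40 and 0.41 on the log2 scale. Over the 772 genes tested on chromosome 9 the median was −0.17 in normoxia and −0.16 in hypoxia, close to the values of Yap1. The median over its 10 nearest tested neighbours was −0.003 in normoxia and 0.03 in hypoxia, with 1 called higher and 2 lower in each.

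Wwtr1 (ENSMUSG00000027803.15, chr3:57363067-57483331, minus strand) was at 125 and 143 CPM in WT cells in normoxia, 129 and 131 in WT cells in hypoxia, 135 and 136 in FIH-KO cells in normoxia and 123 and 125 in FIH-KO cells in hypoxia. The FIH-KO libraries lay between the WT libraries in normoxia and just below them in hypoxia. Its log2 fold change was 0.02 in normoxia (95% confidence interval −0.21 to 0.24, adjusted p = 0.920) and −0.07 in hypoxia (−0.30 to 0.15, adjusted p = 0.643). Over the 683 genes tested on chromosome 3 the median log2 fold change stood lower, at −0.36 in normoxia and −0.41 in hypoxia. The median over the 5 nearest tested genes on each side of Wwtr1 was 0.09 and 0.31, and none of these 10 neighbours was called lower.

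Tead3, which encodes 1 of the 4 TEAD proteins, lies on chromosome 17 (ENSMUSG00000002249.22, chr17:28550645-28569791, minus strand). It was at 8.997 and 9.42 CPM in WT cells in normoxia, 7.62 and 8.19 in WT cells in hypoxia, 21.9 and 25.0 in FIH-KO cells in normoxia and 16.8 and 15.6 in FIH-KO cells in hypoxia. All 4 FIH-KO libraries lay above all 4 WT libraries. The log2 fold change was 1.35 in normoxia (SE 0.17, 95% confidence interval 0.98 to 1.71, adjusted p = 0.000159) and 1.03 in hypoxia (SE 0.17, 0.66 to 1.40, adjusted p = 0.00109). It had 120 to 159 counts in the WT libraries and 239 to 446 in the FIH-KO libraries.

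Tead4 (ENSMUSG00000030353.16, chr6:128201251-128277786, minus strand) moved the other way. It was at 51.4 and 47.9 CPM in WT cells in normoxia, 54.3 and 61.2 in WT cells in hypoxia, 21.4 and 27.7 in FIH-KO cells in normoxia and 35.2 and 27.0 in FIH-KO cells in hypoxia. The highest FIH-KO library was below the lowest WT library. The log2 fold change was −1.01 in normoxia (SE 0.16, 95% confidence interval −1.37 to −0.66, adjusted p = 0.000900) and −0.89 in hypoxia (SE 0.16, −1.24 to −0.54, adjusted p = 0.00187). The calls of Tead3 and Tead4 held with each of the 8 libraries left out in turn and under the 7 other settings tried.

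**Figure D2:**
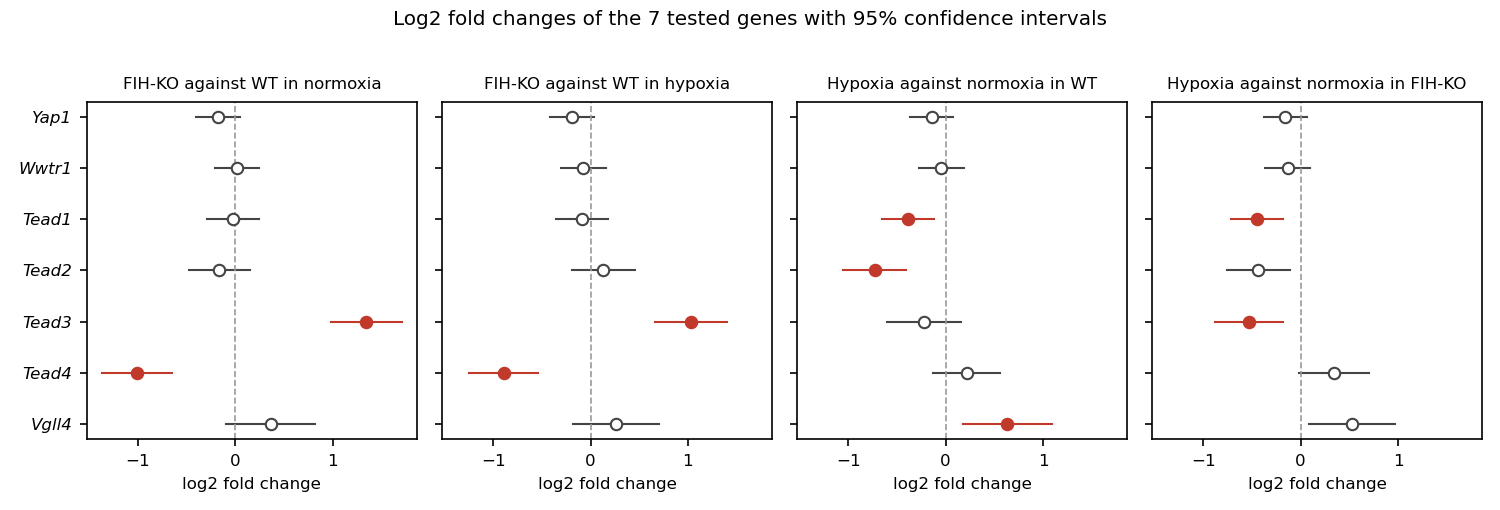
Log2 fold changes of the 7 tested genes in the 4 comparisons, as points with 95% confidence intervals (edgeR). Filled red points passed an adjusted p under 0.05. Tead3 (1.35 and 1.03) and Tead4 (−1.01 and −0.89) passed in FIH-KO against WT cells. For hypoxia against normoxia, Tead1, Tead2 and Vgll4 passed in WT cells, and Tead1 and Tead3 in FIH-KO cells.

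The genes around Tead3 did not share its change. The median over its 10 tested neighbours was 0.10 in normoxia, with a range of −0.47 to 0.48, and 0.03 in hypoxia, and 1 of them was called higher in each. Around Tead4 the median was −0.20 in normoxia and −0.30 in hypoxia, with 3 and 2 of 10 neighbours called lower, beside a median of −0.12 and −0.13 over the 681 tested genes of chromosome 6. The neighbours of Vgll4, also on chromosome 6, had a median of −0.40 and −0.33, while Vgll4 itself was at 0.36 and 0.26.

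**Figure D3:**
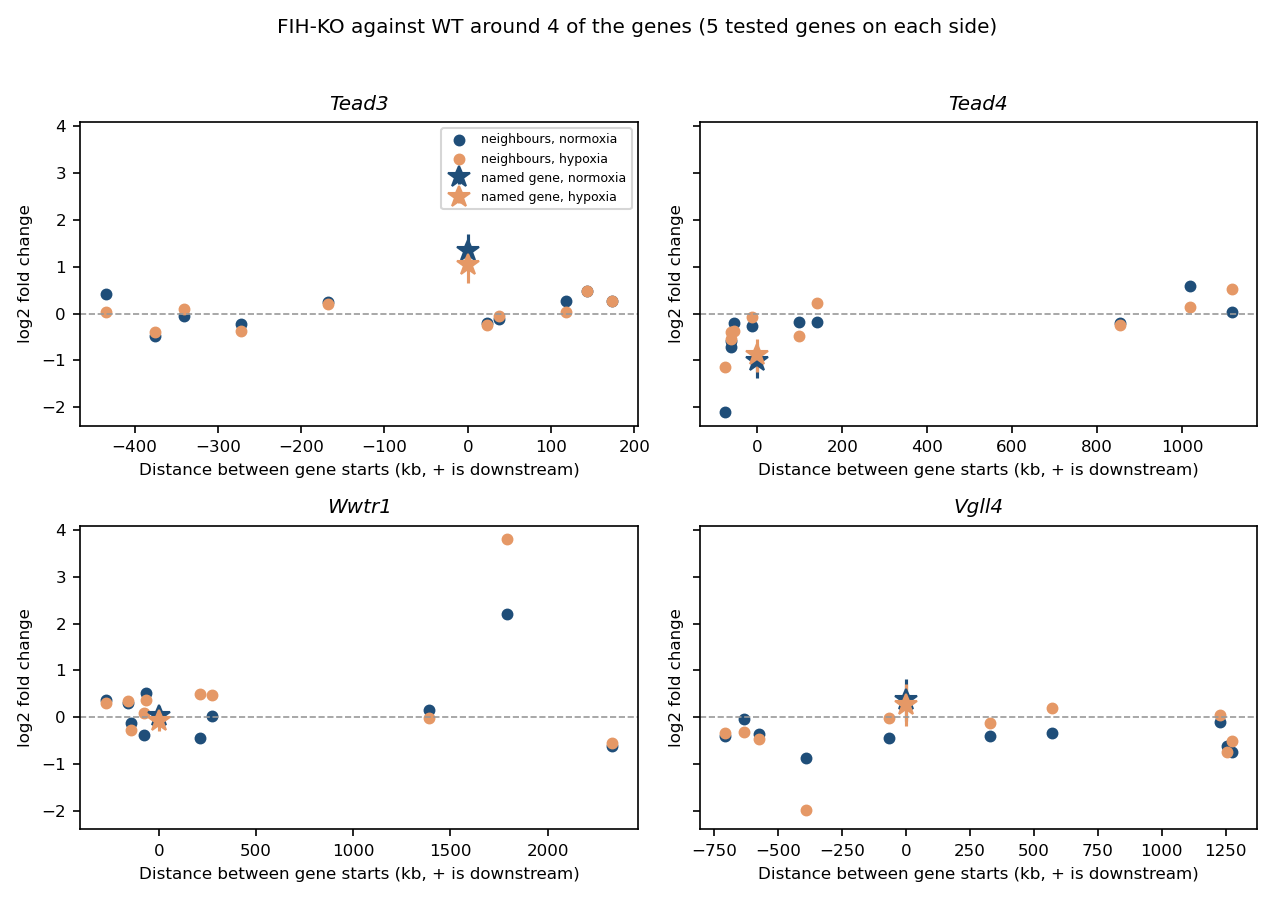
Log2 fold changes in FIH-KO against WT cells of Tead3, Tead4, Wwtr1 and Vgll4 (stars, with 95% confidence intervals) and of the 5 nearest tested genes on each side (dots), against the distance between gene starts in kilobases, positive downstream. The stars of Tead3 (1.35 and 1.03) lie above all 10 of its neighbours in both oxygen conditions.

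Tead1 and Tead2, both on chromosome 7, did not pass the test between FIH-KO and WT cells. Tead1 (ENSMUSG00000055320.19, chr7:112278522-112506014, plus strand) was at 341 and 351 CPM in WT cells in normoxia, 242 and 289 in WT cells in hypoxia, 329 and 351 in FIH-KO cells in normoxia and 230 and 269 in FIH-KO cells in hypoxia. FIH-KO and WT libraries overlapped in both oxygen conditions, and the log2 fold change was −0.02 in normoxia (95% confidence interval −0.29 to 0.24, adjusted p = 0.910) and −0.09 in hypoxia (−0.36 to 0.18, adjusted p = 0.633). Tead2 (ENSMUSG00000030796.18, chr7:44865172-44883071, plus strand) was at 64.4 and 66.8 CPM in WT cells in normoxia, 35.3 and 44.0 in WT cells in hypoxia, 58.6 and 58.3 in FIH-KO cells in normoxia and 48.8 and 37.8 in FIH-KO cells in hypoxia. Its FIH-KO libraries were below the WT libraries in normoxia and overlapped with them in hypoxia, with log2 fold changes of −0.17 (95% confidence interval −0.48 to 0.15, adjusted p = 0.429) and 0.13 (−0.19 to 0.45, adjusted p = 0.556).

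Vgll4 (ENSMUSG00000030315.16, chr6:114837589-114946955, minus strand), the competitor of YAP and TAZ on TEAD proteins, was at 11.5 and 7.76 CPM in WT cells in normoxia, 15.1 and 14.7 in WT cells in hypoxia, 12.3 and 12.4 in FIH-KO cells in normoxia and 19.9 and 15.8 in FIH-KO cells in hypoxia. The FIH-KO libraries were the higher ones in each oxygen condition without overlap, but the log2 fold changes of 0.36 (95% confidence interval −0.09 to 0.82, adjusted p = 0.221) and 0.26 (−0.18 to 0.70, adjusted p = 0.376) did not pass the threshold. Vgll3 (ENSMUSG00000091243.3, chr16:65611923-65663369, plus strand) had 3 counts in 1 WT library in normoxia, 1 count in 1 WT library and in 1 FIH-KO library in hypoxia, and 0 counts in the other 5. A count of 0 allows a level of up to 0.170 to 0.207 CPM in those 5 (3 counts of the library total, counting error only), and Vgll3 was not tested.

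Tead1 and Tead2 were lower in hypoxia than in normoxia in WT cells, and Vgll4 was higher. In WT cells 2 of the 7 tested members were lower in hypoxia and 1 was higher, beside 15.5% of all tested genes called lower and 16.9% called higher. In FIH-KO cells 2 members, Tead1 and Tead3, were lower and 0 were higher, beside 8% and 8.84% of all tested genes (edgeR quasi-likelihood test, adjusted p under 0.05). At an unadjusted p under 0.05 by edgeR were 3 members in WT cells, beside 5957 of the 13933 tested genes. In FIH-KO cells there were 4 members, beside 4315 of all tested genes.

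Tead2 was lower in hypoxia in WT cells, where both libraries in hypoxia lay below both in normoxia. It was 1.66-fold lower (log2 fold change −0.73, SE 0.15, adjusted p = 0.00302 by edgeR), and this held with each library left out (−0.90 to −0.61). In FIH-KO cells the log2 fold change of Tead2 was −0.43 (95% confidence interval −0.75 to −0.11, adjusted p = 0.0633), which missed the threshold although the libraries did not overlap. It passed without FIH-KO hypoxia replicate 1 (−0.60, adjusted p = 0.0304) and with every gene of at least 1 read kept (adjusted p = 0.0412), and was −0.27 without FIH-KO hypoxia replicate 2 (adjusted p = 0.262). The difference between the FIH-KO and the WT response was 0.30 (SE 0.21, adjusted p = 0.815), so that the responses of Tead2 were not shown to differ.

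Tead1 was 1.30-fold lower in hypoxia in WT cells (log2 fold change −0.38, SE 0.12, adjusted p = 0.0324) and 1.36-fold lower in FIH-KO cells (−0.45, SE 0.12, adjusted p = 0.0274). Libraries in hypoxia and normoxia did not overlap in either genotype. The call in WT cells was lost without WT hypoxia replicate 1 (−0.30, adjusted p = 0.190) and without either WT normoxia library, and the call in FIH-KO cells was lost without either normoxia library of either genotype and without FIH-KO hypoxia replicate 1, which moved the value most (−0.31). A fit of the 4 FIH-KO libraries alone also lost it (adjusted p = 0.101).

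Vgll4 was 1.55-fold higher in hypoxia in WT cells (log2 fold change 0.63, SE 0.21, adjusted p = 0.0363). In FIH-KO cells it was 1.44-fold higher (0.53, SE 0.20), which did not pass the test (adjusted p = 0.0990). The call in WT cells was lost without either WT hypoxia or either FIH-KO normoxia library, and the value fell to 0.34 (adjusted p = 0.368) without WT normoxia replicate 2, the library with the lowest Vgll4 level. Tead3 was 1.45-fold lower in hypoxia in FIH-KO cells (−0.53, SE 0.16, adjusted p = 0.0399), a call lost with any 1 of the 8 libraries left out (−0.61 to −0.41), and in WT cells its log2 fold change was −0.22 (adjusted p = 0.366). Tead4 had log2 fold changes of 0.22 in WT cells (adjusted p = 0.329) and 0.34 in FIH-KO cells (adjusted p = 0.188), and Yap1 and Wwtr1 ranged from −0.16 to −0.04 with adjusted p of 0.316 or higher.

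Whether hypoxia changed the effect of FIH loss was tested as an interaction, the FIH-KO against WT difference in hypoxia minus that in normoxia. None of the 7 members passed (smallest adjusted p 0.815, with 0 at an unadjusted p under 0.05 and 0 called by DESeq2), beside 0% of all 13933 tested genes by edgeR, of which 925 had an unadjusted p under 0.05 and 40 were called by DESeq2. For Tead3 the interaction was −0.31 (95% confidence interval −0.83 to 0.20) and for Tead4 0.12 (−0.38 to 0.62), so that differences between the oxygen conditions of these sizes could not be resolved with 2 libraries a group.

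Levels can be compared between genes only per length, and CPM per kilobase of merged exon is used for this. Yap1 (27.0 ± 0.02, SD, n = 2) and Tead1 (25.5 ± 0.52) led in WT cells in normoxia, followed by Tead2 (12.0 ± 0.31), Wwtr1 (11.3 ± 1.06), Tead4 (8.18 ± 0.41), Vgll4 (1.78 ± 0.49) and Tead3 (1.37 ± 0.04). The libraries of Tead2 and Wwtr1 overlapped, and other neighbours in this order did not. In FIH-KO cells in normoxia Tead3 had moved above Vgll4 and stood next to Tead4, at 3.49 ± 0.33 and 4.05 ± 0.73, with overlapping libraries, and Tead1 (25.1 ± 1.16) and Yap1 (23.9 ± 0.71) overlapped too. In WT cells in hypoxia the order was Yap1 (24.5 ± 1.23), Tead1 (19.5 ± 2.46), Wwtr1 (11.01 ± 0.09), Tead4 (9.51 ± 0.81), Tead2 (7.26 ± 1.12), Vgll4 (2.75 ± 0.06) and Tead3 (1.18 ± 0.06), and no neighbours in it overlapped. In FIH-KO cells in hypoxia Yap1 (21.4 ± 0.96) and Tead1 (18.4 ± 2.01) again led, and Tead2 (7.93 ± 1.42) stood above Tead4 (5.12 ± 0.95), Vgll4 (3.30 ± 0.55) and Tead3 (2.41 ± 0.13), without overlap between neighbours. This order depends on the length used. Per kilobase of the longest transcript Wwtr1 (28.5 ± 2.66) stood above Tead2 (19.2 ± 0.50) in WT normoxia, and Tead3 (6.80 ± 0.64) above Tead4 (4.14 ± 0.75) in FIH-KO normoxia, without overlap in either pair.

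Within the TEAD family Tead1 made up the larger part in every group, at 54.1% ± 0.57 (SD, n = 2) of the summed CPM per kilobase in WT cells in normoxia, 52.1% ± 0.38 in WT cells in hypoxia, 57.9% ± 0.23 in FIH-KO cells in normoxia and 54.4% ± 6.72 in FIH-KO cells in hypoxia. The share of Tead3 was 2.92% ± 0.07 in WT and 8.04% ± 0.35 in FIH-KO cells in normoxia, and 3.15% ± 0.21 and 7.12% ± 0.28 in hypoxia. The share of Tead4 was 17.4% ± 1.05 in WT and 9.32% ± 1.22 in FIH-KO cells in normoxia, and 25.4% ± 0.86 and 15.1% ± 2.59 in hypoxia. The ratio of Tead4 to Tead3 was 6.32 and 5.62 in the WT libraries in normoxia, 7.88 and 8.26 in WT in hypoxia, 1.09 and 1.23 in FIH-KO in normoxia and 2.32 and 1.92 in FIH-KO in hypoxia, with no overlap between genotypes. With the longest transcript the ratio was 3.13, 4.23, 0.607 and 1.11 as the means of WT normoxia, WT hypoxia, FIH-KO normoxia and FIH-KO hypoxia.

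The 4 TEAD genes together were at 47.0 ± 0.46 CPM per kilobase in WT normoxia, 43.3 ± 2.18 in FIH-KO normoxia, 37.5 ± 4.44 in WT hypoxia and 33.8 ± 0.49 in FIH-KO hypoxia. Yap1 was above Wwtr1 in every library, with a ratio of 2.39 ± 0.22, 2.22 ± 0.13, 2.08 ± 0.07 and 2.05 ± 0.11 in WT normoxia, WT hypoxia, FIH-KO normoxia and FIH-KO hypoxia. The WT libraries had the higher ratios in each oxygen condition, but in hypoxia the nearest WT and FIH-KO libraries were both at 2.13. These shares and ratios depend on which exons are counted, since the annotation lists from 5 transcripts of Tead4 to 27 of Tead2, whereas the fold by which a ratio of a pair of genes differs between groups does not use the length.

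**Figure D4:**
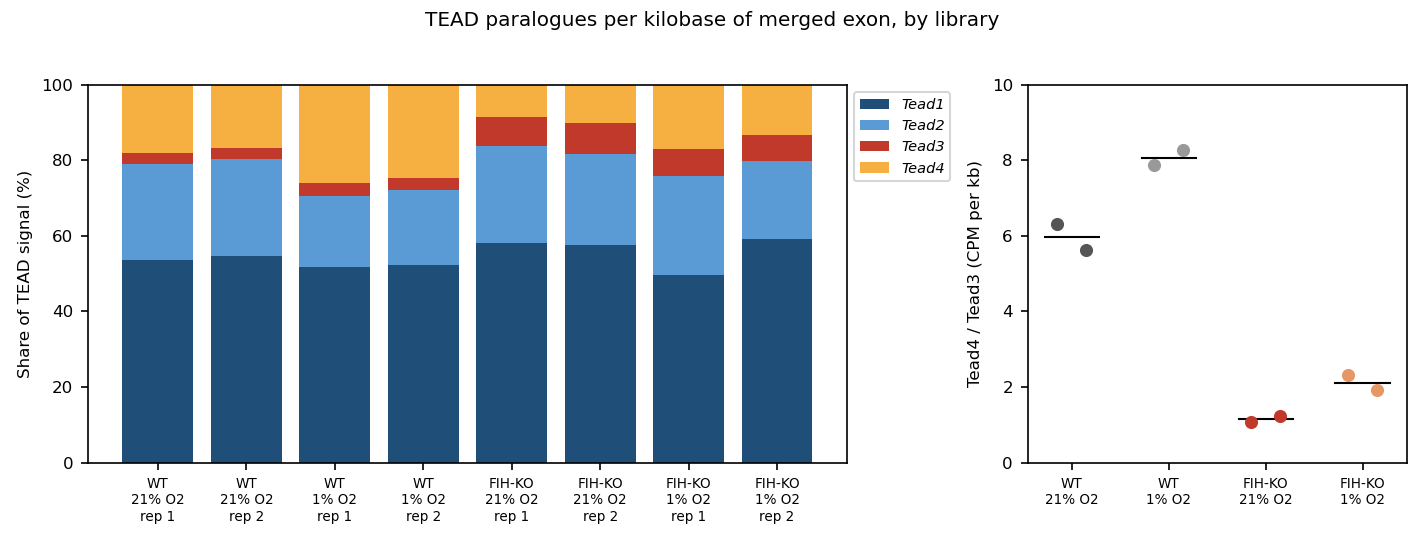
Left, share of each TEAD gene in the summed TEAD level (percent of CPM per kilobase) in every library. Right, ratio of Tead4 to Tead3 on the same scale, with points for libraries and bars for the means of 2. Within each oxygen condition the Tead4 share is smaller and the Tead3 share larger in the FIH-KO libraries. In the 4 FIH-KO libraries the ratio stays between 1.09 and 2.32, against 5.62 to 8.26 in WT.

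The promoters of Tead3 and Tead4, the members that differed between FIH-KO and WT cells, and of Tead1, called lower in hypoxia in both genotypes, were read from GRCm39 to set their sequence beside the counts. Windows are the 250 bases before the start of the canonical transcript, read 5′ to 3′ on the gene's strand (240 bases for Tead4, chr6:128277787-128278026, leaving out last bases that lie in an exon of another Tead4 transcript). Tead3 is chr17:28569792-28570041, minus strand, and Tead1 is chr7:112278272-112278521, plus strand. Capitals mark the TEAD site, GGAATG, and the HIF core motif, spelled ACGTG, for which a match of the letters GCGTG was counted as well, each read on either strand.
Tead3: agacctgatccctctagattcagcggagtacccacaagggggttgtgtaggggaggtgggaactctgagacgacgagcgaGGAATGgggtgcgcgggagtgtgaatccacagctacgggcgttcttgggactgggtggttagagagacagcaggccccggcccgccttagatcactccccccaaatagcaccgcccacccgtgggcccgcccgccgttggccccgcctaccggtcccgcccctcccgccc
Tead4: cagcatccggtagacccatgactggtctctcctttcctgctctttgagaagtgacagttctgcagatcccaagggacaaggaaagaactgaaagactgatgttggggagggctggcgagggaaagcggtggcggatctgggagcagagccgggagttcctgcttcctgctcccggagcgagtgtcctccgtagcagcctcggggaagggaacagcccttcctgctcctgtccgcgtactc
Tead1: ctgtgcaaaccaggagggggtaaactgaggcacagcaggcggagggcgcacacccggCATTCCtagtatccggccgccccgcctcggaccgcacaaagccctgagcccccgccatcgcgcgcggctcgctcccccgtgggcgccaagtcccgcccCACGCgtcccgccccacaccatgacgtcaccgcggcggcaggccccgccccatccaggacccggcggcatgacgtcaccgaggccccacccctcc

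Searched on both strands, the TEAD site occurred 1 time each in the windows of Yap1, Wwtr1, Tead1 and Tead3 and in 11.4% of the 11624 promoters of the same length. The HIF core occurred in those of Yap1, Wwtr1 and Tead1, beside 54.1% of all promoters, and its letters were not found in those of Tead2, Tead3, Tead4, Vgll3 and Vgll4. In Yap1 a 60-base stretch (chr9:8004727-8004786, minus strand) holds the matches of both motifs, with the palindrome CACGTG read as a HIF core on either strand, and is shown because it holds the most matches among the 8 windows.
Yap1: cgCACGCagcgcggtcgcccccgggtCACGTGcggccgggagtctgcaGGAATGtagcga
These matches describe the windows and were not measured as binding. The Vgll4 window (chr6:114898799-114899048) lies inside the annotated gene, so that the sequence before its outermost start was not read. The Wwtr1 window (chr3:57483250-57483499) overlaps the annotated gene in part.

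The genes most like each member were found by Pearson r of log2 CPM over the 8 libraries, searching 10575 genes whose counts averaged 50 or more. They were Itga7 and Stau1 for Tead3 (r of 0.99 for both), Zcchc10 and Ptcd3 for Tead4 (0.99 for both), Samhd1 and Tbc1d1 for Tead1 (0.99 for both), and Cd276 (0.99) and Sumf2 (0.98) for Tead2. For Yap1 they were Uqcr10 (0.99) and Mrps28 (0.98), for Vgll4 Rhobtb1 and Plcxd2 (0.97 for both) and for Wwtr1 Sh3pxd2b (0.94) and Tctn3 (0.92). With 8 libraries in 4 groups and many genes searched, such values describe a shared pattern over the groups.

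The other genes of the pathway were taken from 5 lists of 15 Hippo kinases, 25 scaffolds and upstream regulators, 13 genes of YAP/TAZ retention and turnover, 20 other nuclear partners and 24 YAP/TAZ targets, 3 of which (Amotl2, Lats2 and Ptpn14) stand on 2 lists. None of the 14 tested kinases passed the test between FIH-KO and WT cells in either oxygen condition by edgeR or DESeq2, with 1 in normoxia and 4 in hypoxia at an unadjusted p under 0.05, and their median was 0.14 in normoxia and 0.05 in hypoxia on the log2 scale. Of all 13933 genes, 15.2% were called higher and 13% lower in normoxia and 14.1% and 13.9% in hypoxia, and 5505 and 5500 had an unadjusted p under 0.05. By edgeR, hypoxia raised 2 of the 14 kinases in WT cells, beside 16.9% of all tested genes. They were Lats1 (0.64, adjusted p = 0.00140), which phosphorylates YAP and TAZ, and Taok1 (0.60, adjusted p = 0.00208). In FIH-KO cells it raised 3 of the 14, beside 8.84% of all tested genes. Among these were Lats1 (0.49, adjusted p = 0.0118) and Taok1 (0.47, adjusted p = 0.0156). For FIH-KO against WT cells the median over all tested genes was 0.00 in normoxia and −0.03 in hypoxia.

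Of the 23 tested scaffolds and upstream regulators, 4 were higher and 4 lower in FIH-KO cells in normoxia, and 3 were higher and 5 lower in hypoxia, beside the 15.2% and 13% of all tested genes in normoxia and 14.1% and 13.9% in hypoxia. The medians were 0.01 and 0.02. With 1 library left out, 1 to 4 were higher and 2 to 5 lower in normoxia. Higher genes were 1 without FIH-KO normoxia replicate 2 or either WT normoxia library, and lower genes were 2 without FIH-KO normoxia replicate 1 or either WT normoxia library. In hypoxia 1 to 4 were higher, with 1 without WT hypoxia replicate 2, and 1 to 5 lower, with 1 without WT hypoxia replicate 1. Amot, whose protein binds YAP outside the nucleus, rose by 4.57 in normoxia and 5.06 in hypoxia on the log2 scale. Wwc1, the Hippo activator KIBRA, fell by 0.68 and 0.76 on the log2 scale. Fat1, an atypical cadherin, rose in normoxia (0.73, adjusted p = 0.00654), and Rassf1 fell in hypoxia by 0.61 (adjusted p = 0.0281). Of the 13 genes of retention and turnover, 0 were higher and 1 was lower in each oxygen condition, Ywhae, a 14-3-3 protein, in normoxia (−0.39) and Csnk1e, a casein kinase, in hypoxia (−0.61), beside the same shares of all tested genes.

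Of the 14 tested nuclear partners, 5 were higher and 0 lower in FIH-KO cells in normoxia, beside 15.2% and 13% of all tested genes, and 0 were called in hypoxia by edgeR or DESeq2 (2 had an unadjusted p under 0.05), beside 14.1% and 13.9%. The medians were 0.36 and −0.05. The 5 included Jund (0.83, adjusted p = 0.00938), an AP-1 subunit, Smad3 (0.53), Runx2 (0.43) and Smad2 (0.36). Without WT normoxia replicate 1 the 5 became 0, and without FIH-KO hypoxia replicate 1 the 0 lower in hypoxia became 5. Hypoxia raised 9 of the 14 in WT cells and lowered 0, beside 16.9% and 15.5% of all tested genes, among them Fosl2 (1.07, adjusted p = 0.000499) and Junb (1.89, adjusted p = 0.00119), also AP-1 subunits. In FIH-KO cells hypoxia raised 4 of the 14 and lowered 0 by edgeR, beside 8.84% and 8% of all tested genes.

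Of the 21 tested YAP/TAZ targets, 3 were higher and 6 lower in FIH-KO cells in both oxygen conditions, beside 15.2% higher and 13% lower of all tested genes in normoxia and 14.1% and 13.9% in hypoxia. The medians of the list were −0.11 and −0.27. Myc fell by 1.04 in normoxia and by 1.47 in hypoxia on the log2 scale, and Areg, an EGF receptor ligand, by 1.06 and 0.85. Crim1 rose by 0.88 and 0.53, Arhgef17 rose by 0.53 (adjusted p = 0.00306) and 0.51, and Amotl2 rose in normoxia (0.62). By quantitative PCR the study had reported lower Myc, Areg, Ccn1 (Cyr61) and Ccn2 (Ctgf) in FIH-KO cells, and their rescue after Amot deletion. That assay differs from the RNA-Seq counts used here. Ccn1, which encodes a matricellular protein and is named here after its values were seen, did not pass in normoxia (−0.35, adjusted p = 0.498) or hypoxia (−0.79, adjusted p = 0.0970), and Ccn2, also a matricellular protein gene, averaged 4 counts a library and was not tested. Myc and Areg stand both in the study's report and among the targets called lower here. The other targets called lower are not among the genes of that report. The lists were chosen with earlier results of these data known, so that this count is not independent evidence of a direction. A filter of at least 10 counts in every library left out Fjx1, Tgfb2 and Nt5e, which fell below it in FIH-KO cells in hypoxia. With that filter the number lower was 3 in normoxia and 2 in hypoxia, and DESeq2 called 4 and 3. It was 2 in normoxia without FIH-KO normoxia replicate 1, and 3 in hypoxia without either WT hypoxia library.

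**Figure D5:**
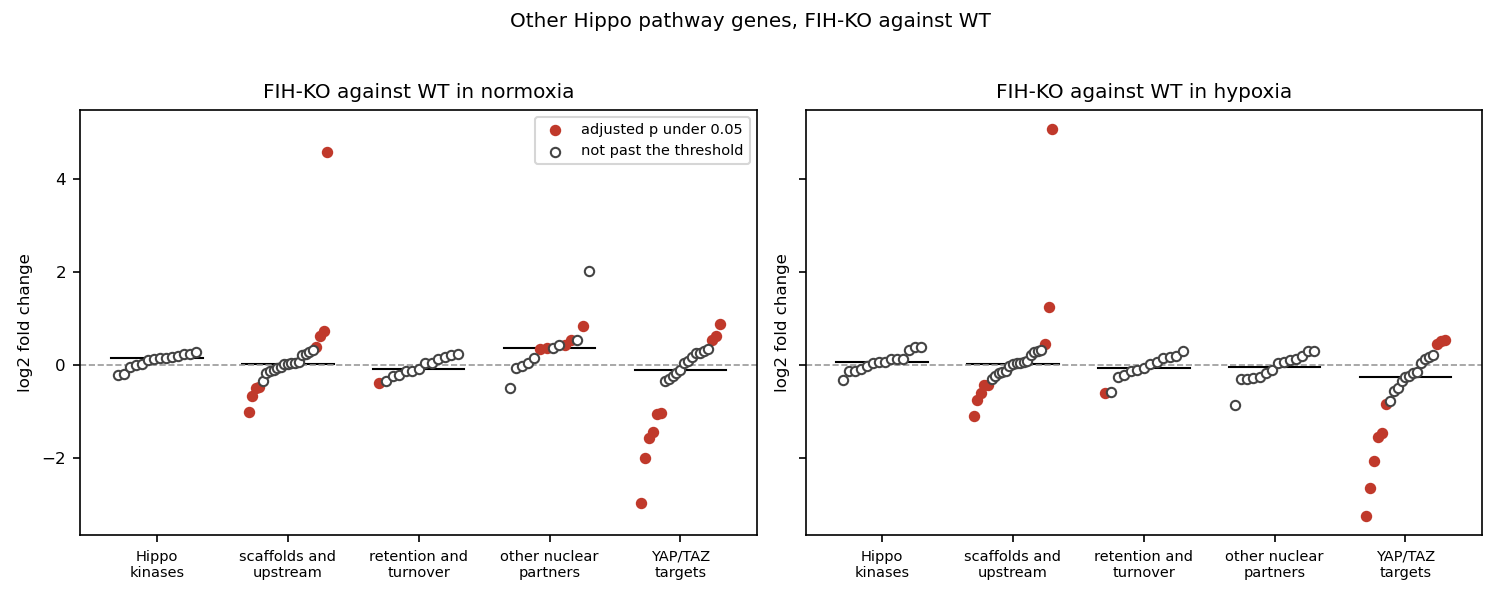
Log2 fold changes in FIH-KO against WT cells of the tested genes of the 5 lists, in normoxia (left) and hypoxia (right). Each point is a gene, filled red where the adjusted p was under 0.05, and bars are medians. No kinase passed, Amot stands apart at 4.57 and 5.06, and the target list holds genes called in both directions.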

How the data were processed

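The authors converted the reads with bcl2fastq, aligned them with STAR (GRCm39) and counted reads by gene, and the deposited values are raw counts of 8 libraries, used as deposited. The submitters' processing notes also name DESeq2 and the builds GRCm38 and mm10. The library kit was strand-specific, but the strand setting, annotation release and treatment of multi-mapping reads are not given in the sources used here. Tead paralogues could share such reads, and of the genes overlapping Yap1 and Tead2 exons on the other strand, Gm20416 and Cd37 held at most 3 counts and Gm73183, at Tead2, has no counts used here. Nothing says that replicates came from separate cultures, so p-values measure the spread between these libraries, which may be technical.

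Counts were fitted with edgeR 4.0.16 in R 4.3.3 (filterByExpr, 13933 genes, TMM, quasi-likelihood test with 4 group means, Benjamini-Hochberg adjustment, threshold 0.05; biological coefficient of variation 11.7%). Positions and merged exon lengths came from GENCODE for GRCm39, in which 52610 identifiers were found, and promoters were read with pysam 0.24.0. Alternatives were DESeq2 1.42.0, RLE or upper-quartile normalization, other count filters, fewer libraries, and a replicate block. The members and lists were chosen with earlier results of these data known. The named genes were the members, Hif1an, genes overlapping a member, the 2 genes most like each member, and from each list, where counts averaged 50 or more, the 4 called genes with the largest change in each FIH-KO comparison and the 2 called with the smallest p in hypoxia in WT cells. One gene that this rule names is not reported here.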

Additional observations from a re-analysis of the deposited data

How the results depend on the processing

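The calls of Tead3 and Tead4 in FIH-KO against WT cells kept direction and threshold under all 15 alternatives. Leaving out each library gave 1.22 to 1.42 and 1.01 to 1.09 for Tead3 in normoxia and hypoxia, and −1.24 to −0.86 and −1.05 to −0.71 for Tead4. The number of members lower in hypoxia in FIH-KO cells (2) was 0 with only the 4 libraries compared and 0 to 1 with 1 library left out, and in WT cells the number higher (1) was 0 to 1 and lower (2) was 1 to 2. Uncalled values that changed sign with 1 library left out ranged, for FIH-KO against WT, from −0.104 to 0.092 for Wwtr1 in normoxia, −0.097 to 0.0023 for Tead1 in normoxia, −0.20 to 0.060 for Tead1 in hypoxia and −0.024 to 0.306 for Tead2 in hypoxia, for Wwtr1 with hypoxia in WT cells from −0.18 to 0.017, and for the interaction from −0.059 to 0.098 (Yap1), −0.13 to 0.065 (Wwtr1), −0.18 to 0.11 (Tead1), −0.016 to 0.38 (Tead4) and −0.35 to 0.21 (Vgll4). The Yap1 interaction was also 0.015 with upper-quartile normalization, 0.0057 without a filter and 0.018 with at least 10 counts in every library. The cause was not tested.

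Without length, Tead1 was 73.5%, 71.6%, 76.2% and 73.3% of TEAD CPM and Yap1 to Wwtr1 1.90, 1.76, 1.65 and 1.62 in WT normoxia, WT hypoxia, FIH-KO normoxia and FIH-KO hypoxia. With the longest transcript Yap1 to Wwtr1 was 1.69, 1.57, 1.47 and 1.45, the Tead1 share 53.4%, 53.0%, 54.9% and 52.6%, and, added after seeing the data, Tead4 to Tead3 3.13, 4.23, 0.607 and 1.11 in place of 5.97, 8.07, 1.16 and 2.12. The length used is the cause by construction.

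With 1 library left out, an alternative added for the lists after seeing the data, FIH-KO against WT in normoxia and hypoxia gave 1 to 4 and 1 to 4 scaffolds higher and 2 to 5 and 1 to 5 lower, 0 to 2 and 0 to 1 retention genes lower and 0 to 1 higher in hypoxia, 0 to 7 and 0 to 1 partners higher and 0 to 1 and 0 to 5 lower, 1 to 3 targets higher in normoxia, 2 to 6 and 3 to 8 lower, and 0 to 1 kinases higher and 0 to 1 lower in hypoxia. With at least 10 counts in every library, targets lower were 3 and 2, with Fjx1, Tgfb2 and Nt5e no longer tested. In hypoxia 1 retention gene was higher with that filter. With DESeq2, also added after seeing the data, 3 targets were lower and 1 retention gene was higher in hypoxia.

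With the replicate block, Tead3 was 1.34 and 1.03 and Tead4 −1.01 and −0.89, and no call of a member changed. Over genes, differences between replicates 1 and 2 were correlated between groups with r of −0.010 to 0.19 over the 6 pairs. The highest values were 0.19 for WT hypoxia with FIH-KO hypoxia and 0.11 for FIH-KO normoxia with FIH-KO hypoxia. Whether same-numbered libraries shared a batch or handling was not tested. With 2 libraries a group, small changes were not detectable, and Vgll3 was limited by depth.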
